A study of Homo sapiens with 10 samples.

Results

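The comparison described here sets the combination of a CDK4/6 inhibitor and an XPO1 inhibitor against the XPO1 inhibitor alone, so that the groups differ by the CDK4/6 inhibitor. Its members are the 4 libraries that the labels assign to these treatments, of 10 in the series: the combination and the XPO1 inhibitor in the liver cancer cell lines named PLC and 97H. The labels name the XPO1 inhibitor KPT330 (selinexor), leave the CDK4/6 inhibitor unnamed, and give neither doses nor times in the sources used here. Each line and treatment has 1 library, so the replicate is the cell line and each group holds 2 libraries. The control and the CDK4/6 inhibitor alone in the same lines, 4 further libraries, served as the matching comparison without the XPO1 inhibitor. The treatment label of the control libraries is Control. Below, vehicle means these libraries, and what they received is not given by that label. Values are FPKM, fragment counts divided by transcript length and by the number of fragments mapped per library, and differences are on the log2(FPKM + 1) scale, which understates those of genes at low FPKM.

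In G1, cyclin D with CDK4 or CDK6 phosphorylates the retinoblastoma proteins, which releases E2F factors and lets the genes of DNA replication be transcribed. While retinoblastoma-family proteins stay active, they also build the DREAM complex, which holds down the genes of mitosis through a promoter element called CHR. XPO1 is the export receptor that carries proteins with a leucine-rich signal from the nucleus to the cytoplasm, among them p53 and p21, and selinexor binds its cargo groove. Cells that leave the cycle for good, a state called senescence, are known for low lamin B1, high CDK inhibitors, an enlarged lysosomal compartment and secreted factors.

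With both inhibitors, PLC and 97H had lower levels of the genes of DNA synthesis and mitosis than with the XPO1 inhibitor alone, and higher levels of several histone, lysosomal and secreted-protein genes. In bulk RNA, fewer cells in cycle and less RNA of these genes per cell cannot be told apart. At least 2-fold lower in both lines were 107 of 10221 genes tested (1.05%), and at least 2-fold higher in both were 37 (0.362%). The 107 had median differences of -1.77 in PLC and -1.46 in 97H, and 79 of them stood in at least 1 of the gene lists used here. The 37 had median differences of 1.40 in PLC and 1.17 in 97H, and 13 of them stood in a list. Lower in both lines by any amount were 28.6% of genes, and 24.0% were higher in both.

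limma with the cell line as a block, fitted on the 8 libraries of PLC and 97H with Benjamini-Hochberg adjustment, called no gene at an adjusted p under 0.05 (0.0% of 10221). The smallest adjusted p was 0.0527, shared by RRM2, PLK1, TYMS and BIRC5, all lower. At an unadjusted p under 0.05 stood 531 genes (5.2%, against 5% if none differed), of which 297 were lower (2.91%) and 234 higher (2.29%). All 107 of the first group were among them, but they were chosen by the same differences that limma averages. That overlap is therefore no separate evidence. The spread in that fit comes from all 4 treatments, and the calls depended on it. Fitted on the 4 libraries of the comparison alone, which leave 1 residual degree of freedom, limma called 100 genes, 78 lower and 22 higher. Leaving out either library of the CDK4/6 inhibitor or of the XPO1 inhibitor raised the count. Leaving out either control or either combination library did not. Each of those fits leaves 1 library in a group. Levels are therefore given library by library.

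**Figure D1:**
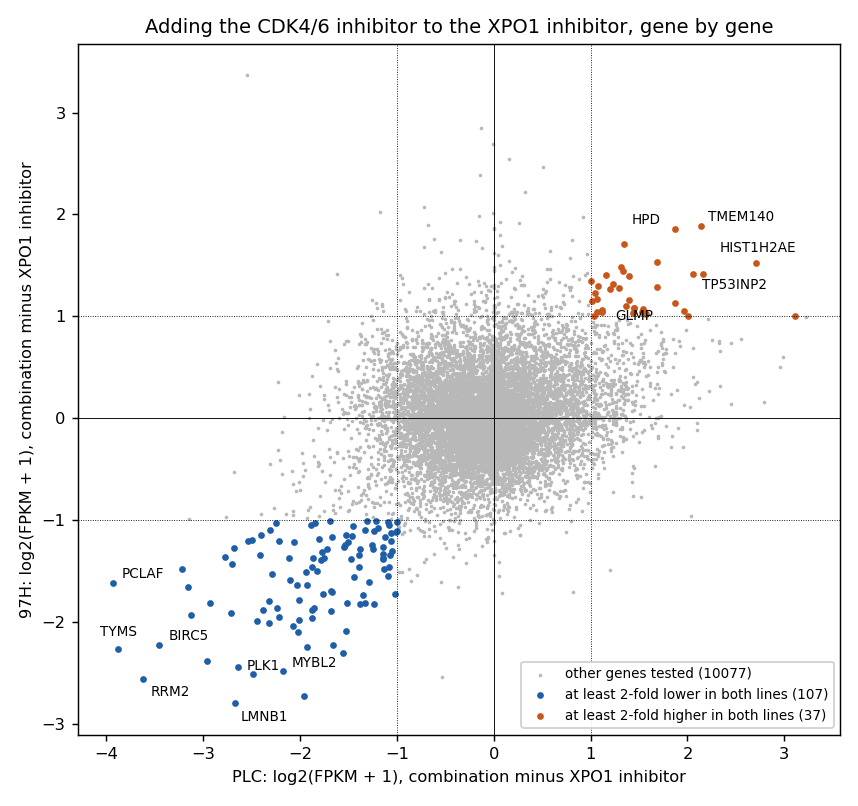
Each point is a gene; the horizontal axis is the PLC difference and the vertical axis the 97H difference between the combination and the XPO1 inhibitor, in log2(FPKM + 1). The 107 genes at least 2-fold lower in both lines (blue) fill the lower left corner, down to -2.80 in 97H at LMNB1 and to -3.93 in PLC at PCLAF, the 37 higher ones (orange) reach 1.88 in 97H at TMEM140, and the dotted lines mark the 2-fold limits.

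The counts of genes past 2-fold differed between the lines. With 1 library per line and treatment, a difference in response was not tested. In PLC 661 genes were at least 2-fold lower and 494 higher, and in 97H 190 were lower and 253 higher. Across the genes tested, 52.6% had the same direction in both lines, and the differences correlated at a Pearson r of 0.238 and a Spearman rho of 0.139, a description over 10221 genes that share libraries. In PLC the difference followed transcript GC content (Spearman rho 0.566 across genes), from a median of -0.65 in the tenth of genes with the least GC to 0.46 in the tenth with the most. In 97H the correlation with GC content was -0.018, but the medians were not flat. They ran from 0.21 at the least GC through -0.17 at a bin median of 52.25% to 0.22 at the most. Adding the CDK4/6 inhibitor to vehicle followed GC content in opposite directions, with rho of -0.683 in PLC and 0.736 in 97H. The source of this trend was not tested. With the trends on GC content and length removed, limma called 63 genes, 59 lower and 4 higher, and 93 of the 107 lower genes but 15 of the 37 higher ones remained past 2-fold in both lines. Of the named genes, 33 had a PLC difference that moved by over 1.5 times with the trends removed, and 6 a 97H difference that did.

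**Figure D2:**
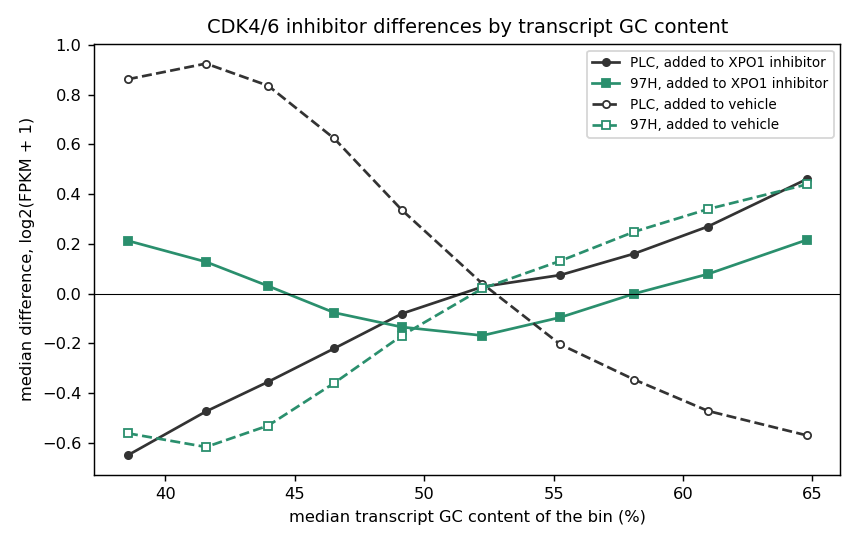
Median difference in log2(FPKM + 1) (vertical axis) over 10 bins of genes by the GC content of their transcripts in percent (horizontal axis), with solid lines for the CDK4/6 inhibitor added to the XPO1 inhibitor and dashed lines for its addition to vehicle. The solid PLC line climbs from -0.65 to 0.46, the solid 97H line stays between -0.17 and 0.22, and the dashed lines cross in opposite directions.

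Enzymes that make DNA precursors had median differences of -0.79 (PLC) and -0.71 (97H), and RRM2 and TYMS were among the 15 lowest genes of the table. RRM2, the small subunit of ribonucleotide reductase, stood at 27.4 FPKM on the XPO1 inhibitor and 1.31 on the combination in PLC, and at 19.1 and 2.41 in 97H. Both combination libraries lay below both XPO1-inhibitor libraries, and below the vehicle and CDK4/6-inhibitor libraries of their lines, which held 18.5 to 36.2 FPKM. The difference was -3.62 in PLC and -2.56 in 97H (limma estimate -3.09, SE 0.40, adjusted p = 0.0527). TYMS, thymidylate synthase, stood at 91.1 and 5.25 FPKM in PLC and at 36.5 and 6.80 in 97H, a fitted difference of -3.07 (SE 0.42, limma adjusted p = 0.0527). TK1, which salvages thymidine, stood at 52.3 and 8.99 FPKM in PLC and at 63.8 and 24.5 in 97H. DTYMK, the next kinase of that route, differed by -2.25 in PLC and -1.03 in 97H. PAICS and CTPS1, of purine and cytidine synthesis, showed differences of about 1 log2 unit: -1.01 and -1.12 for PAICS, -0.98 and -1.06 for CTPS1. Of 24 nucleotide-supply genes tested, 21 were lower in both lines and 5 at least 2-fold lower in both, with none higher in both.

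Genes of origin licensing and the replication fork had median differences of -1.30 in PLC and -0.99 in 97H. Tested were 49 of its 51 genes, and 47 were lower in both lines, 18 at least 2-fold lower in both and 35 at an unadjusted limma p under 0.05. CDC45, which joins the MCM ring to form the replicative helicase, stood at 9.61 FPKM on the XPO1 inhibitor and 1.61 on the combination in PLC, and at 8.55 and 1.23 in 97H. GINS2, of the same helicase, stood at 25.4 and 3.03 FPKM in PLC and at 21.8 and 5.05 in 97H. ORC1, the largest origin-recognition subunit, differed by -1.76 in PLC and -1.73 in 97H. MCM4, a subunit of the ring, stood at 48.7 and 12.1 FPKM in PLC and at 72.3 and 22.5 in 97H. PCLAF, which binds the sliding clamp PCNA, stood at 23.4 and 0.595 FPKM in PLC, one of the widest gaps of the list, and at 15.5 and 4.38 in 97H. ASF1B, a chaperone that hands histones to new DNA, differed by -2.04 in PLC and -1.63 in 97H. All 6 genes had lower values in both combination libraries than in either XPO1-inhibitor library.

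Mitotic kinases, cyclins and parts of the anaphase-promoting complex had median differences of -1.68 in PLC and -1.20 in 97H. Of 42 genes tested, 40 were lower in both lines and 27 at least 2-fold lower in both. PLK1, the kinase that drives mitotic entry and spindle assembly, stood at 50.7 FPKM on the XPO1 inhibitor and 7.27 on the combination in PLC, and at 76.3 and 13.3 in 97H. Its fitted difference was -2.54 (SE 0.34, limma adjusted p = 0.0527). BIRC5, survivin, the chromosomal passenger subunit that also restrains caspases, stood at 49.9 and 3.63 FPKM in PLC and at 48.6 and 9.59 in 97H, a fitted difference of -2.84 (SE 0.37, limma adjusted p = 0.0527). The PLC vehicle and CDK4/6-inhibitor libraries held 90.4 and 48.0 FPKM of BIRC5, so the combination was the low library of the 4 in that line, as it was in 97H. KIF20A, a kinesin of the late spindle that carries the passenger complex, was at 9.95 and 0.955 FPKM in PLC and at 8.33 and 0.641 in 97H. PTTG1, securin, the inhibitor of separase, was at 42.5 and 7.68 FPKM in PLC and at 14.5 and 2.85 in 97H. GTSE1, a microtubule-binding protein of G2, differed by -2.07 in PLC and -2.04 in 97H. CCNB2, a mitotic cyclin, differed by -2.24 and -1.87.

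**Figure D3:**
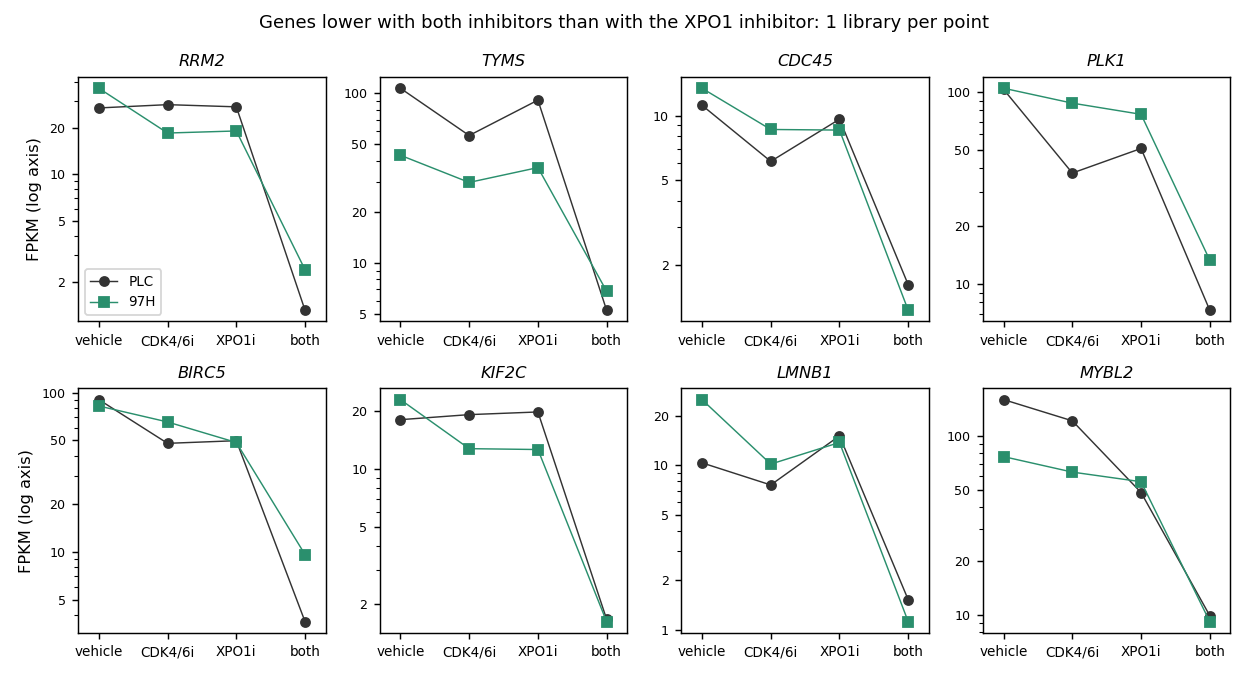
FPKM on a log axis (vertical) in the 4 treatments (horizontal) for 8 genes, 1 library per point, with circles for PLC and squares for 97H; lines join libraries of a cell line and carry no error. In each panel the library with both inhibitors is the lowest of its line, for example 1.31 FPKM of RRM2 in PLC against 27.0 to 28.3 in the other 3.

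Centromere and kinetochore genes had medians of -1.18 (PLC) and -0.74 (97H), with 25 of 26 tested genes lower in both lines and 8 at least 2-fold lower in both. CENPA, the histone H3 variant that marks the centromere, stood at 14.3 FPKM on the XPO1 inhibitor and 0.751 on the combination in PLC, and at 11.3 and 2.23 in 97H. HJURP, the chaperone that loads CENPA, stood at 11.7 and 2.27 FPKM in PLC and at 38.8 and 5.03 in 97H. SKA1, ZWINT and SPC25, of the outer kinetochore, showed differences between -3.22 and -1.48 over both lines. Kinesins, condensin and condensation factors had medians of -1.55 and -1.15, with 22 of 23 tested genes lower in both lines and 11 at least 2-fold lower in both. KIF2C, the kinesin that strips microtubules from wrongly attached kinetochores, was at 19.8 and 1.67 FPKM in PLC and at 12.7 and 1.62 in 97H (limma adjusted p = 0.0744). KIF4A, a chromosome-bound kinesin, was at 10.7 and 2.06 FPKM in PLC and at 19.7 and 3.36 in 97H. KIFC1, a minus-end motor, differed by -1.55 in PLC and -2.31 in 97H. SPAG5, a spindle protein outside the lists, was at 13.7 and 2.64 FPKM in PLC and at 17.4 and 3.65 in 97H.

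Genes of homologous recombination and the Fanconi pathway, which mend broken and crosslinked DNA mainly in S and G2, had medians of -1.13 (PLC) and -0.58 (97H). Of 24 tested, 22 were lower in both lines but 4 were at least 2-fold lower in both. RAD54L, a DNA translocase of recombination, stood at 8.33 FPKM on the XPO1 inhibitor and 2.82 on the combination in PLC, and at 5.59 and 1.17 in 97H. EXO1, an end-resecting nuclease, differed by -1.86 and -1.38, and FANCE, of the Fanconi core complex, by -1.05 and -1.30.

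LMNB1, lamin B1, had the largest smaller-of-2-lines difference of any gene. It stood at 15.1 FPKM on the XPO1 inhibitor and 1.52 on the combination in PLC, and at 13.8 and 1.12 in 97H. Both combination libraries were below every other library of those lines, whose lowest value was 7.60 FPKM with the CDK4/6 inhibitor in PLC. The fitted difference was -2.74 (SE 0.44, limma adjusted p = 0.109), and it was the 1 gene at least 2-fold lower in both lines among 20 tested genes of the lamina, HMG proteins and heterochromatin. HMGB2, a chromatin-bending protein, was at 32.5 and 5.33 FPKM in PLC and at 38.8 and 19.8 in 97H. With the XPO1 inhibitor HMGB2 stood above the vehicle libraries, which held 6.95 FPKM in PLC and 27.8 in 97H. H2AFZ, the histone variant H2A.Z, differed by -1.10 and -0.93, and EZH2, the H3K27 methyltransferase, by -1.47 and -0.85.

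Among the factors that drive these genes, 3 of 14 tested were at least 2-fold lower in both lines. MYBL2, which joins the MuvB core to switch on mitotic genes, stood at 48.2 FPKM on the XPO1 inhibitor and 9.86 on the combination in PLC, and at 55.4 and 9.14 in 97H. FOXM1, the next factor of that series, stood at 18.8 and 2.65 FPKM in PLC and at 42.2 and 9.87 in 97H. E2F2, an activating E2F, stood at 4.59 and 0.574 FPKM in PLC and at 2.16 and 0.118 in 97H. E2F7, a repressing E2F, differed by -1.06 in PLC, where the combination library was listed at 0, and by -0.63 in 97H. The other members were closer to 0, and the list medians were -0.35 in PLC and -0.53 in 97H.

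The targets of both drugs and the retinoblastoma axis were mixed. Of 18 genes in that list 16 were tested, 7 were lower in both lines, 5 higher in both and 4 opposite. CDK4 stood at 139.5 FPKM on the XPO1 inhibitor and 103.0 on the combination in PLC, and at 210.9 and 167.0 in 97H. CDK6 was low throughout the comparison, at 2.57 and 1.44 FPKM in PLC and 1.74 and 1.90 in 97H. XPO1 itself stood at 48.3 and 18.2 FPKM in PLC and at 19.2 and 21.7 in 97H, a difference of -1.36 in PLC and 0.17 in 97H. Its PLC difference was -0.79 after removal of the GC and length trends. RB1 stood at 4.02 and 1.61 FPKM in PLC and at 0.384 and 0.479 in 97H, where all 4 libraries were below 0.5. The other pocket-protein genes RBL1 and RBL2 differed by -1.20 and -0.64 in PLC and by -0.40 and 0.49 in 97H. CCND1 and CCND3, the D cyclins, differed by 0.42 and 0.16 in PLC and by 0.15 and 0.48 in 97H. CDK2 and CCNE1, the kinase and cyclin that act after CDK4/6, differed by -1.49 and -1.17 in PLC and by -0.90 and -0.36 in 97H. With the GC and length trends removed, the PLC differences were -0.36 for RB1, -0.78 for RBL1, -0.38 for RBL2, 0.15 for CCND1 and -0.14 for CCND3.

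The CDK inhibitor genes of this list split by member. CDKN2C, p18, was at 23.6 FPKM on the XPO1 inhibitor and 4.28 on the combination in PLC, and at 5.42 and 0.661 in 97H. CDKN2B, p15, went the other way, at 1.35 and 4.75 FPKM in PLC and at 10.5 and 27.0 in 97H. These 2 INK4 genes thus differed by at least 2-fold in both lines, in opposite directions. CDKN1A, p21, was at 16.1 and 39.4 FPKM in PLC and at 42.4 and 71.3 in 97H. CDKN2D, p19, differed by 0.58 and 0.48, CDKN1B, p27, by -1.30 and -0.59, and CDKN1C, p57, by -0.17 and -0.08. With the trends removed, CDKN2D differed by 0.38 and CDKN1C by -0.54 in PLC.

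Promoters were examined because the lower genes are textbook targets of a few short elements. RefSeq windows on GRCh38.p14, from 250 bases before to 50 after the start, were found for 8439 of the 10221 tested genes, for 92 of the 107 lower genes and for 33 of the 37 higher ones. TTTGAA, the CHR element, stood on either strand in 30 of the 92 windows of lower genes (32.6%) and in 9.1% of all windows. CCAAT stood in 64.1% of them and 37% of all, and both elements together in 26.1% and 3.92%. Of the 33 windows of higher genes, 12.1% held the CHR element, 45.5% CCAAT and 6.06% both. An E2F match, TTCCCGC or TTGGCGC on either strand, stood in 38% of the lower genes' windows, 6.06% of the higher genes' and 15.2% of all. CCAAT read on the other strand can share letters with TTGGCGC, and a match is a description of letters, not of binding.

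Shown here are 4 windows of lower genes that differ in the elements they hold, and that of NEU1, a lysosomal gene higher in the combination. Each runs 5′ to 3′ on the gene's strand from 200 bases before the start to 30 after it, with matches in capitals. They lie at chr2:10122539-10122768 (plus strand), chr16:23678689-23678918 (plus), chr18:657453-657682 (plus), chr15:59104946-59105175 (plus) and chr6:31862792-31863021 (minus).
RRM2: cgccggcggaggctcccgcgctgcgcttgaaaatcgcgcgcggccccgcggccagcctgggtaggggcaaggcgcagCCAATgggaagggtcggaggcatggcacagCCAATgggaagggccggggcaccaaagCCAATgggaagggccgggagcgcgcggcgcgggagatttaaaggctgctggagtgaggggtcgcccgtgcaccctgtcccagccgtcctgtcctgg
PLK1: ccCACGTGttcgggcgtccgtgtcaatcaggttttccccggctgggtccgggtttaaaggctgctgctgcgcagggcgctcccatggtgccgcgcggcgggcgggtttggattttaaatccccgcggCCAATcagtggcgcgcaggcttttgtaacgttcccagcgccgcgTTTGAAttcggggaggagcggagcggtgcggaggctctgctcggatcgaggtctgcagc
TYMS: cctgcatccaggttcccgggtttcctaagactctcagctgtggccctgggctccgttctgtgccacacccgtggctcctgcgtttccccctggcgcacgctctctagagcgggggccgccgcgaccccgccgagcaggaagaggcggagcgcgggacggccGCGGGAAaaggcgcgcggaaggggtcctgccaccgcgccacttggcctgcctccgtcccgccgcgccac
CCNB2: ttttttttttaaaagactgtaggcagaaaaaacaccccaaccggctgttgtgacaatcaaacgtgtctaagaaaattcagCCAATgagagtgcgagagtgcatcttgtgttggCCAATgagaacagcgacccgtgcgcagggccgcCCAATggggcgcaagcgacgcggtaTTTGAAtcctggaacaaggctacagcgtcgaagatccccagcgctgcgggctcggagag
NEU1: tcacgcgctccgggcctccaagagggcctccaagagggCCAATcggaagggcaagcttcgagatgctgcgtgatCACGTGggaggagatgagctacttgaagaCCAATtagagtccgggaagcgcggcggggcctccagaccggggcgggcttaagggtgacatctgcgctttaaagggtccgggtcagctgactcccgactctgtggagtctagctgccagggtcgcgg
RRM2 holds 3 CCAAT boxes, beginning 123, 93 and 66 bases before the start. PLK1 and CCNB2 hold a CHR element that begins 29 bases before the start in both, with 1 CCAAT box in PLK1 and 3 in CCNB2. PLK1 also holds CACGTG, the E-box, at the far end of its window. TYMS holds the E2F match GCGGGAA 39 bases before the start and no CCAAT or CHR letters. NEU1 holds CACGTG 126 bases before the start, the core of the element through which TFEB acts on lysosomal genes, and 2 CCAAT boxes. CACGTG stood in 15 of 45 windows of lysosomal and proton-pump genes (33.3%) and in 10.7% of all. That count covers the whole list, whatever the direction of its genes. In the windows of the 37 higher genes its share was 9.09%, and in those of the 107 lower genes 10.9%, both near that of all.

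When the CDK4/6 inhibitor was added to vehicle, the 107 genes had medians of -0.25 (PLC) and -0.70 (97H), and 61 of them were lower in both lines, against 12.2% of all genes tested. At least 2-fold lower in both lines there were none of the 107 and none of the 10221 (0.0%). The 107 were chosen for their differences on the XPO1 inhibitor, which by itself favours smaller values in another comparison, and FBL and FANCE had larger ones in PLC on vehicle (-1.43 and -1.51) than on the XPO1 inhibitor (-1.08 and -1.05). The difference between the 2 additions, an interaction whose 2 sides share no library, was tested with limma and called no gene (0.0%, smallest adjusted p 0.9999). At an unadjusted p under 0.05 it held 62 genes, far fewer than the 5% of genes that would stand there if none differed. Of these, 59 had a lower value on the XPO1 inhibitor (0.577%) and 3 a higher one (0.0294%). RRM2 had an interaction of -2.66 (SE 0.57, limma adjusted p = 0.9999). KIF2C had -2.31, TYMS -2.36, BIRC5 -2.23 and HJURP -2.41, with the same adjusted p. On vehicle HJURP differed by 1.10 in PLC and -0.95 in 97H. RRM2 and KIF2C were also opposite there, while TYMS and BIRC5 were lower in both lines. The vehicle differences followed GC content in opposite directions in these lines, and these interaction values keep that trend. Without the 97H library of the CDK4/6 inhibitor this test called 1 gene. Of the 42 mitotic genes 12 were among the 59, with a median interaction of -1.14, as were 9 of the 49 replication genes, with a median of -0.82.

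**Figure D4:**
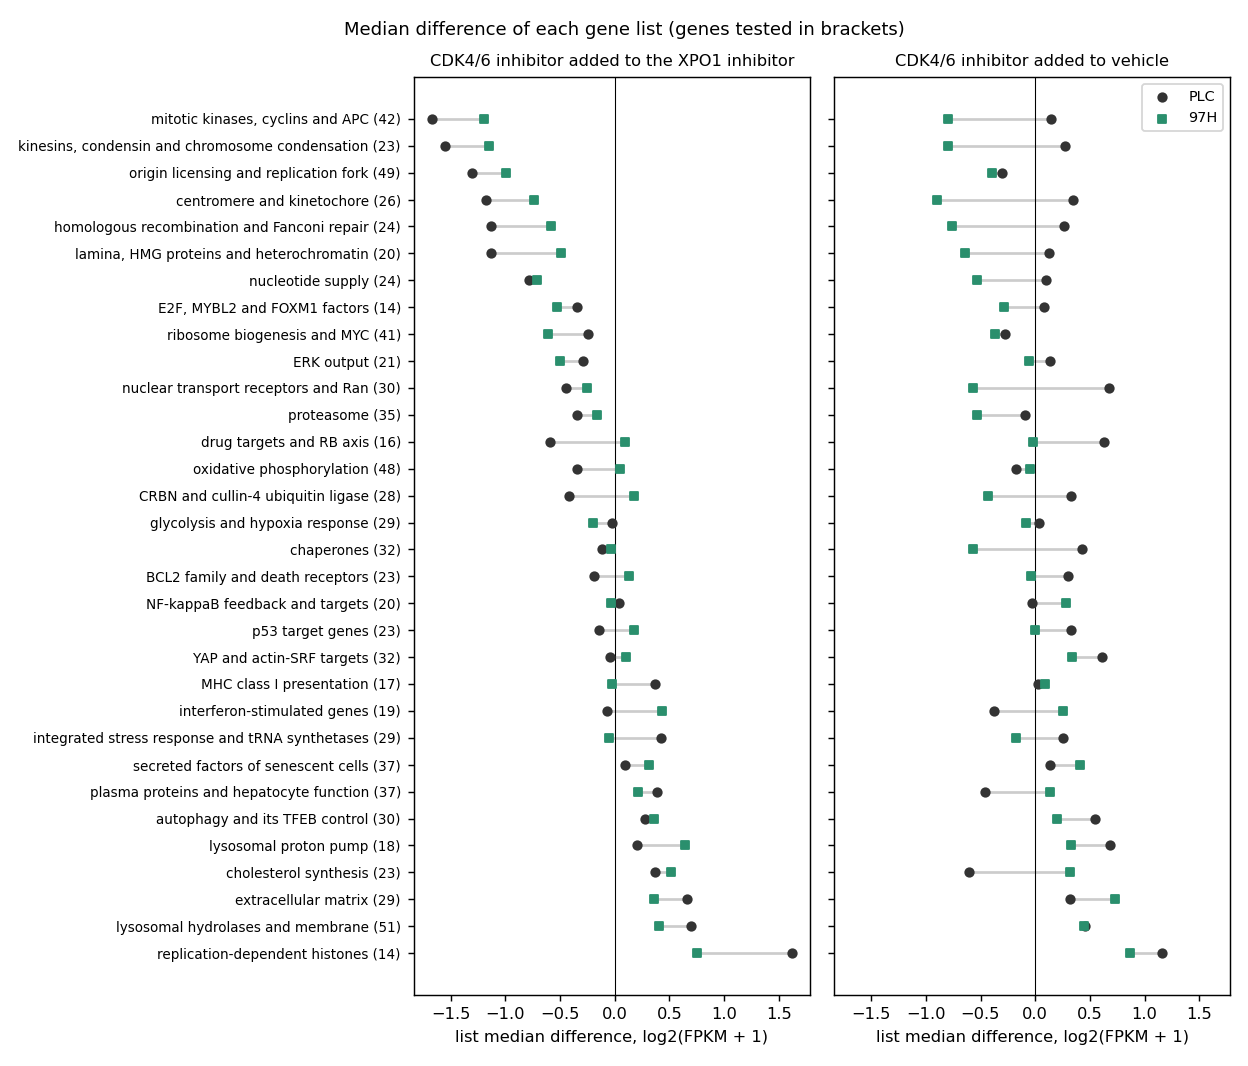
Median difference of each gene list in log2(FPKM + 1) (horizontal axis), with circles for PLC and squares for 97H, when the CDK4/6 inhibitor was added to the XPO1 inhibitor (left) or to vehicle (right). On the left the mitotic list lies lowest, at -1.68 and -1.20, and histones highest, at 1.62 and 0.76; on the right the mitotic list lies at 0.14 in PLC and -0.80 in 97H, and histones at 1.16 and 0.87.

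Replication-dependent histone genes were the highest list. Their messages normally end in a stem-loop without a poly(A) tail, and tailed forms are known from cells that stop dividing. Of 23 in the list 14 were tested, 11 were higher in both lines and 4 at least 2-fold higher in both, with medians of 1.62 (PLC) and 0.76 (97H). HIST1H1C, linker histone H1.2, stood at 31.7 FPKM on the XPO1 inhibitor and 118.9 on the combination in PLC, and at 169.6 and 372.2 in 97H. Its vehicle and CDK4/6-inhibitor libraries held 19.5 and 57.7 FPKM in PLC and 81.9 and 347.8 in 97H, so the CDK4/6 inhibitor alone also stood above vehicle, by 1.52 in PLC and 2.07 in 97H, against 1.87 and 1.13 on the XPO1 inhibitor. HIST1H2AC stood at 7.01 and 30.2 FPKM in PLC and at 35.9 and 75.4 in 97H. HIST1H2AE differed by 2.71 and 1.52 and HIST1H2BC by 1.45 and 1.08. HIST1H2BD and HIST2H2BE differed by 0.96 to 1.05 in PLC and 0.79 to 0.84 in 97H. Histone genes are near-identical copies, so which copy a read came from is uncertain. The median interaction of the list was -0.01.

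Lysosomal enzymes and membrane proteins were higher in both lines for 39 of 51 genes tested, with medians of 0.70 (PLC) and 0.41 (97H), and 12 had an unadjusted p under 0.05. A single one, GLMP, was at least 2-fold higher in both. GLMP, a lysosomal membrane glycoprotein, stood at 96.9 FPKM on the XPO1 inhibitor and 257.4 on the combination in PLC, and at 79.3 and 178.2 in 97H. NEU1, the sialidase whose promoter is shown above, stood at 140.5 and 393.6 FPKM in PLC and at 82.9 and 156.0 in 97H. In both genes the CDK4/6 inhibitor alone also stood above vehicle, at 155.8 against 106.8 FPKM of GLMP in PLC and 136.7 against 68.0 in 97H. CTSB, the protease cathepsin B, differed by 0.86 and 0.77, and SMPD1, acid sphingomyelinase, by 1.16 and 0.85. PLA2G15, a lysosomal phospholipase, differed by 0.92 and 0.78, and GAA, acid glucosidase, by 1.78 and 0.68. GAA's PLC difference was 1.05 after removal of the GC and length trends. The PLC vehicle library held 16.03 FPKM of GAA, against 5.385 on the XPO1 inhibitor and 20.86 on the combination.

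The proton pump that acidifies lysosomes had 13 of 18 tested genes higher in both lines, with medians of 0.20 (PLC) and 0.64 (97H). ATP6V0D2, a subunit of restricted expression, stood at 0.600 and 1.94 FPKM in PLC and at 1.95 and 5.53 in 97H, from at most 0.379 FPKM in the libraries without the XPO1 inhibitor. ATP6V0C, of the membrane ring, stood at 408.6 and 670.0 FPKM in PLC and at 247.9 and 462.0 in 97H. ATP6V0D1 and ATP6AP1 differed by 0.73 and 0.97 in PLC and by 0.61 and 0.52 in 97H. In the autophagy list 16 of 30 tested genes were higher in both lines and 2 at least 2-fold higher in both. TP53INP2, which helps autophagosomes form, stood at 26.7 and 114.1 FPKM in PLC and at 4.15 and 12.7 in 97H. ULK1, the kinase that starts autophagy, stood at 9.23 and 39.95 FPKM in PLC and at 20.01 and 41.2 in 97H. Its PLC vehicle library held 16.0 FPKM, between those values. MAP1LC3B, an LC3 gene, differed by 0.76 and 0.55, and ATG2A, a lipid-transfer protein, by 1.33 and 0.62. The PLC vehicle library held 25.5 FPKM of ATG2A, against 9.52 on the XPO1 inhibitor and 25.4 on the combination. In PLC the differences with the GC and length trends removed were 1.11 for ULK1 and 0.53 for ATG2A.

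**Figure D5:**
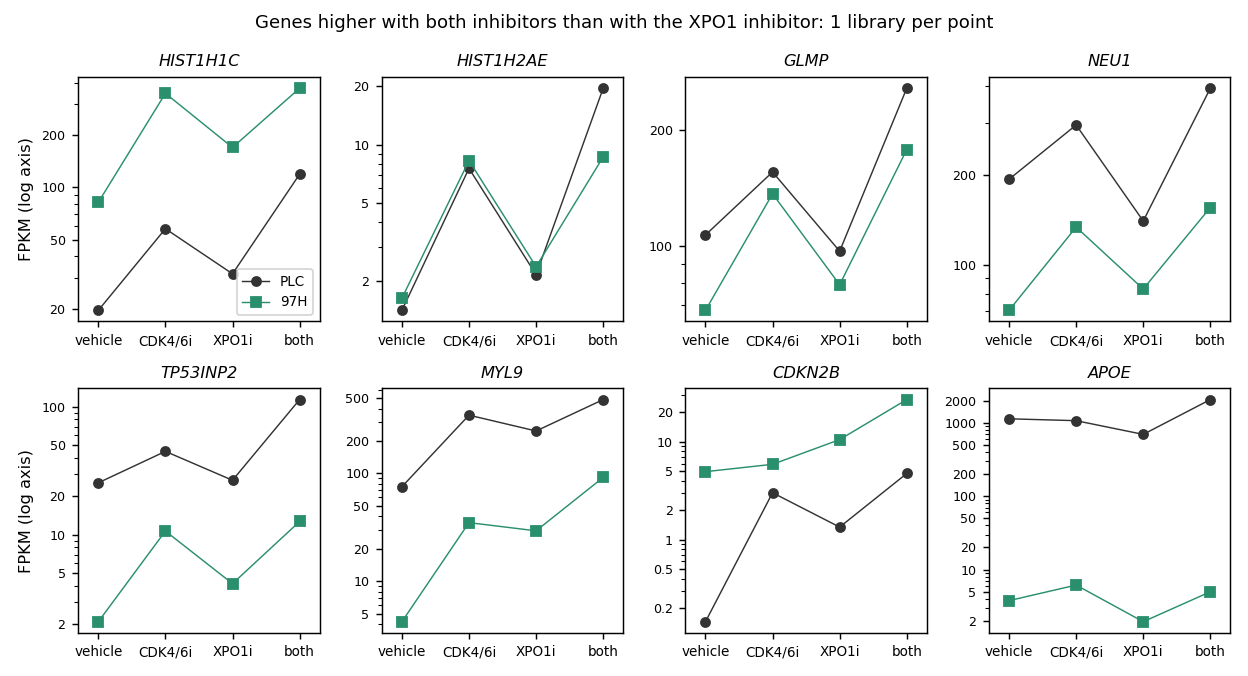
FPKM on a log axis (vertical) in the 4 treatments (horizontal) for 8 genes, 1 library per point, with circles for PLC and squares for 97H; lines join libraries of a cell line and carry no error. For HIST1H1C and GLMP both points with the CDK4/6 inhibitor stand above those without it in each line, while APOE is highest with both inhibitors in PLC, at 2074 FPKM, and stays under 7 in 97H.

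The 15 genes with the largest shared higher values were mostly outside the lists. TMEM140, a membrane protein, led them at 15.8 FPKM on the XPO1 inhibitor and 72.9 on the combination in PLC, and at 5.12 and 21.6 in 97H (fitted difference 2.01, SE 0.40, limma adjusted p = 0.186). HPD, an enzyme of tyrosine breakdown in liver, stood at 4.60 and 19.6 FPKM in PLC and at 4.72 and 19.7 in 97H. CHPF, which polymerizes chondroitin, stood at 52.6 and 170.7 FPKM in PLC and at 27.7 and 81.9 in 97H, although its PLC vehicle library already held 116.3. FSTL3, a secreted inhibitor of activin, stood at 22.4 and 60.5 FPKM in PLC and at 115.0 and 304.9 in 97H. UBD, the ubiquitin-like protein FAT10, stood at 40.5 and 104.5 FPKM in PLC, level with 105.8 for the CDK4/6 inhibitor alone, and at 17.9 and 60.5 in 97H. PCSK1N, a secreted convertase inhibitor, stood at 135.0 and 605.5 FPKM in PLC and at 0.639 and 3.36 in 97H. GSN, the actin-severing protein gelsolin, stood at 7.95 and 19.6 FPKM in PLC and at 15.9 and 39.5 in 97H. KRT17, a keratin, stood at 35.0 and 99.7 FPKM in 97H and at 0.343 and 2.33 in PLC. The transporter SLCO2B1, the PI3K regulator PIK3IP1, FAM214B and the channel HCN2 differed by 1.16 to 1.69 in both lines, and HCN2 by 0.12 in PLC once the GC and length trends were removed. That step left CHPF at 0.94 in PLC and PCSK1N at 0.87 in 97H. In PLC, HCN2 stood at 32.7 FPKM on vehicle, 14.1 on the XPO1 inhibitor and 32.9 on the combination.

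Extracellular matrix genes had 17 of 29 tested members higher in both lines and none lower in both, with medians of 0.66 (PLC) and 0.36 (97H). MFGE8, a secreted bridge between integrins and phosphatidylserine, stood at 30.7 and 85.4 FPKM in PLC and at 34.9 and 74.8 in 97H. MATN3, a matrilin, differed by 0.87 and 1.03, and the syndecan genes SDC3 and SDC4 by 0.84 and 0.52 in PLC and 0.71 and 0.81 in 97H. Of 37 secreted factors of senescent cells tested, 14 were higher in both lines, 3 lower in both and 18 opposite. Their medians were 0.10 (PLC) and 0.31 (97H). Over all genes tested, 24.0% were higher in both lines and 28.6% lower in both. MMP14, a membrane protease, stood at 98.4 and 160.4 FPKM in PLC and at 49.9 and 106.9 in 97H. TIMP2, a protease inhibitor, stood at 12.9 and 36.5 FPKM in PLC and at 144.7 and 219.4 in 97H. TGFB1 differed by 0.85 and 0.54 and ANGPTL4 by 0.62 and 0.79. The PLC vehicle library held 43.7 FPKM of TGFB1 and 7.42 of ANGPTL4, above the PLC combination library at 41.6 and 3.32. With the GC and length trends removed, the PLC median of the matrix list was 0.30, and the PLC differences were 0.10 for SDC3, 0.22 for MMP14, 0.28 for TGFB1 and 0.22 for ANGPTL4. Among actin and YAP targets, MYL9, a myosin light chain, stood at 247.6 and 484.4 FPKM in PLC and at 29.3 and 91.8 in 97H, and CNN2 differed by 0.52 (0.23 with the trends removed) and 0.61, while 11 of 32 tested genes were higher in both lines and 8 lower in both.

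Hepatocyte plasma-protein genes were higher in both lines for 19 of 37 tested, lower in both for 2 and opposite for 15. APOE, the lipoprotein ligand, stood at 695.9 FPKM on the XPO1 inhibitor and 2074 on the combination in PLC, and at 1.95 and 4.99 in 97H. SERPINA1, alpha-1-antitrypsin, stood at 661.7 and 1380 FPKM in PLC and at 1.65 and 3.74 in 97H. The PLC vehicle and CDK4/6-inhibitor libraries held 1673 and 1759 FPKM of SERPINA1, above the combination. TTR, transthyretin, differed by 0.81 and 1.75. Among liver markers outside this rule, named after their values were seen, AFP, alpha-fetoprotein, stood at 17.2 and 2.90 FPKM in PLC and at 4.14 and 5.60 in 97H, and ALB, albumin, at 4.44 and 3.29 in PLC and at 5.11 and 15.8 in 97H. Cholesterol synthesis genes were higher in both lines for 13 of 23 tested, with medians of 0.37 and 0.51 and none lower in both. MVD, the decarboxylase of the mevalonate route, stood at 16.7 and 51.0 FPKM in PLC and at 6.30 and 13.9 in 97H. Its PLC vehicle library held 42.1 FPKM. INSIG1 and MSMO1 differed by 0.59 each in PLC and by 0.63 and 1.36 in 97H, and MSMO1 by 1.17 in PLC with the trends removed.

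Other lists were lower by less or showed no shared direction. Ribosome biogenesis and MYC genes had medians of -0.25 (PLC) and -0.61 (97H), with 27 of 41 tested lower in both lines. FBL, the rRNA methyltransferase fibrillarin, was at least 2-fold lower in both, at 117.8 and 55.2 FPKM in PLC and 213.7 and 77.2 in 97H. NCL, nucleolin, differed by -0.70 and -0.89, WDR12 by -0.80 and -0.77 and DKC1 by -0.52 and -0.87. WDR12 differed by -0.44 in PLC with the GC and length trends removed. ERK output genes had medians of -0.29 and -0.50, with 12 of 21 tested lower in both. Their members DUSP6, ETV4, SPRY1 and EGR1, which report or restrain the kinase ERK, differed by -0.52 to -0.71 in PLC and by -0.63 to -1.01 in 97H, and SPRY1 by -0.32 in PLC with the trends removed. Nuclear transport genes had 13 of 30 tested lower in both and 15 opposite. KPNA2, an importin alpha, differed by -0.70 and -1.38. RAN, the GTPase that powers transport, stood at 310.0 and 208.3 FPKM in PLC and at 351.7 and 233.2 in 97H, and its partners RCC1 and RANBP1 differed by -0.65 and -0.69 in PLC and by -0.86 and -0.55 in 97H.

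The list counts that follow stand against 28.6% of all tested genes lower in both lines and 24.0% higher in both. The p53 target list, of interest since p53 is an XPO1 cargo, had 6 of 23 tested genes higher in both lines, 7 lower in both and 10 opposite. CDKN1A led it, followed by BTG2, an antiproliferative gene, with differences of 0.70 and 0.87, and by SESN2 with 0.70 and 0.49. The CRBN and cullin-4 ligase list was named in the title of the series as the route of degrader drugs. Of its 28 tested genes 8 were lower in both, no more than the share of all genes, 3 higher in both and 17 opposite. COPS6 and GLUL showed its largest shared lower values, -0.65 and -0.65 in PLC and -0.52 and -0.29 in 97H. Proteasome genes were lower in both lines for 22 of 35 tested, by little: PSMC3 and PSMG1 led at -0.51 in PLC and -0.73 and -0.72 in 97H. MHC class I presentation was split, with HLA-C, HLA-B and HLA-E higher by 0.84 to 1.21 in PLC and 0.37 to 0.69 in 97H, and PSMB9 and TAP2 lower by 0.55 to 1.04 and by 0.79 to 0.93. Of 20 NF-kappaB genes tested, 5 were higher in both and 6 lower in both, with medians of 0.04 (PLC) and -0.03 (97H). The largest shared higher values were those of IL32, with differences of 1.02 and 0.89, and ICAM1, with 0.67 and 0.54. In the glycolysis list LDHA, lactate dehydrogenase, stood at 510.7 and 269.0 FPKM in PLC and at 571.7 and 360.9 in 97H, and TPI1 differed by -0.77 and -0.46, while 10 of 29 tested were lower in both and 6 higher. Chaperones had 10 of 32 lower in both and 7 higher, with FKBP4 at -0.55 and -1.17 and STIP1 at -0.45 and -0.45. BCL2-family and death-receptor genes had 8 of 23 lower in both and 6 higher, with medians of -0.19 (PLC) and 0.13 (97H). Named here are only members higher in both, BOK at 0.72 and 1.12 and BIK at 0.41 and 0.67, and none of the lower ones. With the GC and length trends removed, BOK differed by 0.05 in PLC, SESN2 by 0.22, ICAM1 by 0.40 and PSMG1 by -0.32. Interferon-stimulated genes had 5 of 19 higher in both and 3 lower, UBD among the former. Stress-response and tRNA synthetase genes had 7 of 29 higher in both and 4 lower, and of 48 oxidative phosphorylation genes 18 were lower in both, 1 higher and 29 opposite.

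The epithelial keratin KRT8 stood at 1356 to 4328 FPKM in the 4 libraries of the comparison, and liver factor HNF4A at 16.9 to 45.2. Of 21 markers of blood, endothelial, stromal and biliary cells, PTPRC, MS4A1 and NKG7 were at 0 or below 0.01 FPKM, and 14 to 17 markers were under 1 FPKM in each of the 4 libraries. The summed level of the list was 249.4 FPKM on the XPO1 inhibitor and 110.3 on the combination in PLC, mostly LYZ at 234.5 and 91.8, and 439.2 and 708.8 in 97H, mostly the keratin KRT19. LUM, a stromal proteoglycan, stood at 5.67 and 26.0 FPKM in 97H. The part of these markers in the matrix and secreted-factor values was not tested.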

How the data were processed

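Per the labels' protocols, Trizol was used to extract RNA and a TruSeq RNA kit to build the libraries. Per the submitters' processing notes, CASAVA 1.8.2 called bases, STAR 2.4.2g1 aligned reads to GRCh38 and featureCounts of Subread counted them. For 20030 genes in 10 libraries the authors deposited FPKM, whose computation from counts is not given in the sources used here. Whole reads could not be recovered, so absolute depth is unknown and no count model was run. The smallest values place the depth of the 8 PLC and 97H libraries between 0.862 and 1.04 of the PLC combination library, resting on 1.04% to 2.27% of low genes. FPKM summed to 321388 to 377933 per library, which is not depth, and 14033 to 15264 genes were above 0. In 27 entries a symbol turned into a date was restored from the accession beside it.

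limma 3.58.1 in R 4.3.3 was fitted to log2(FPKM + 1) of 10221 genes, those averaging 1 FPKM or more in the 8 libraries, with treatment and cell line as terms, 3 residual degrees of freedom and a variance trend (two-sided, Benjamini-Hochberg adjustment). The script was tested on simulated data with a spread smaller than that of these data, which checks the code and not the power here. The labels pair samples by line, and the log2 values of libraries of the same line had Pearson r of 0.9533 to 0.9875, against 0.8246 to 0.8534 for libraries of different lines. Whether a line's libraries came from separate cultures is not given. The line is a term of the fit, and each line and treatment has 1 library. The p-values therefore measure how far treatment differences vary between the lines, pooled over all treatments, and not the spread between repeated cultures. Transcript GC content, length and positions came from GENCODE 29 (GRCh38), found for 10188 tested genes.

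Named genes are the 15 lowest and 15 highest by the smaller of both within-line differences, 5 opposite genes each way, tested genes of the drug-target list and 2 to 6 genes per described list that had the largest shared difference. Members, lists and rules were chosen with earlier results of these data known, so list counts are descriptions set beside the share over all genes tested. Alternatives were other pseudocounts, filters, scalings, library sets, the fit without the block, GC and length trends removed, and each library left out. Huh7 libraries entered alternatives only. The values of 2 genes that the rule names are not reported here.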

Additional observations from a re-analysis of the deposited data

Results flagged for a closer look

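Between the XPO1 inhibitor and the combination, 10 genes named by rule differed in opposite directions in the 2 lines. The difference between lines was not tested, since each line has 1 library per treatment. Values in brackets are the 97H difference minus the PLC difference in log2(FPKM + 1). SLX1B, a structure-specific nuclease subunit with the near-identical copy SLX1A, stood at 5.61 FPKM on the XPO1 inhibitor and 0.127 on the combination in PLC, and at 0.189 and 11.2 in 97H (5.92). Reads of the 2 copies cannot be assigned with certainty. TCIM stood at 59.3 and 25.8 FPKM in PLC and at 7.59 and 34.0 in 97H (3.20). C15orf65 (3.03), the actin-capping subunit gene CAPZA2 (2.41) and the peroxisome assembly gene PEX2 (2.35) shared that direction. FOSL1, an AP-1 subunit, stood at 1.81 and 10.5 FPKM in PLC and at 54.7 and 27.7 in 97H (-2.99). APOBEC3B, a cytidine deaminase, stood at 7.56 and 18.7 FPKM in PLC and at 14.1 and 4.40 in 97H (-2.69). The zinc exporter SLC30A1 (-1.82), CBX6 (-1.80) and SOGA1 (-1.67) shared that direction. With GC and length trends removed, the PLC differences were smaller by over 1.5 times for C15orf65 (-1.62 to -0.87), TCIM (-1.17 to -0.49), CAPZA2 (-1.25 to -0.57), PEX2 (-1.22 to -0.74), CBX6 (0.97 to 0.26) and SOGA1 (0.85 to 0.17), and larger for SLC30A1 (0.91 to 1.45). Past 2-fold in both lines were 10 genes lower in PLC and higher in 97H, and 1 the other way.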

How the results depend on the processing

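The count of genes called by limma, 0 in the fit reported, was 5 with a pseudocount of 0.1, 6 with quantile normalization, 10 with median-ratio scaling, 63 with GC and length trends removed, 100 on the 4 libraries alone and 0 to 71 with 1 library left out. It was 0 with the pseudocount of 0.5, the 3 other filters, a single prior variance, all 10 libraries and no replicate block. The interaction gave 0 to 1 with 1 library left out and 0 under the other alternatives. The 107 genes lower past 2-fold became 171 with a pseudocount of 0.1 and stayed between 87 and 129 otherwise. The 37 higher became 94 with that pseudocount and 22 with GC and length trends removed, and stayed between 31 and 54 otherwise. Of 2644 values of 133 named genes under alternatives, 191 became called, 2452 kept their direction and side of the threshold, and 1 changed sign: CDKN1C ranged from -0.267 to 0.0089 with 1 library left out. RB1 in 97H, which has no test, was -0.074 with GC and length trends removed. The cause was not tested. Where a library was left out, the lone sample of its group was assumed to vary like the others. Depth is unknown, so levels under about 1 FPKM carry an unknown counting error.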

Other observations

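Of the 107 genes at least 2-fold lower in both lines, 28 were in no list. Those named here were chosen after their values were seen. Several act on chromatin or RNA. PARP1, the DNA-break sensor, stood at 23.4 FPKM with the combination and 57.0 with the XPO1 inhibitor in PLC, and at 18.8 and 47.3 in 97H. SSRP1, a subunit of the histone chaperone FACT, stood at 30.6 against 69.1 FPKM in PLC and at 22.2 against 54.8 in 97H. NASP, which stores histones H3 and H4, differed by -1.47 and -1.16. The RNA-binding proteins RBMX and HNRNPH3 differed by -1.55 and -1.26 in PLC and by -1.26 and -1.24 in 97H. DDX39A, an RNA helicase of mRNA export, differed by -1.06 and -1.12. CHEK1, the checkpoint kinase of stalled forks, stood at 2.34 against 8.47 FPKM in PLC and at 0.838 against 3.26 in 97H. FABP5, a fatty acid carrier, stood at 39.8 against 89.0 FPKM in PLC and at 11.6 against 31.5 in 97H.

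GRN, progranulin, a secreted and lysosomal protein, was one of the higher genes, at 467.5 FPKM with the combination against 161.5 in PLC and 327.4 against 158.8 in 97H. SLC2A6, a hexose transporter of lysosomes, stood at 22.3 against 10.4 FPKM in PLC and at 6.45 against 2.72 in 97H.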
